A study of Homo sapiens with 12 samples.

Results

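EGI-1 is an established human cholangiocarcinoma (CCA) cell line, and the comparison described here is decitabine against vehicle in that line. Of the 12 RNA-sequencing libraries of the series, 4 belong to it: 2 from cells given DMSO as vehicle and 2 from cells given 500 nM decitabine, all collected at 72 h. The members were the libraries whose labels name EGI-1 cells with DMSO or decitabine alone, so no measured value chose them. The model that estimated the spread also held 2 EGI-1 libraries with 200 nM talazoparib, an inhibitor of the repair enzyme PARP, and 2 with decitabine and talazoparib together, giving 8 libraries in 4 arms. The labels give 200 nM, although the talazoparib library names read 50. HUCCT1, another established CCA line, contributed 2 vehicle libraries and 2 with 1000 nM decitabine, also at 72 h, and these served for values side by side. Every arm is 1 cell line in culture with n = 2, and nothing in the labels says that the 2 libraries of an arm came from separate experiments, so p-values measure the spread between these libraries, which may be technical.

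Decitabine is a deoxycytidine analogue that is built into DNA during replication and traps DNA methyltransferases there, DNMT1 above all. Daughter strands then lose methyl groups at CpG sites with each division, and genes held off by promoter methylation, including tumour suppressors and germline genes, can be transcribed. In CCA, SOX17 and SFRP1 are known as genes silenced in this way. For UCHL1, the paper calls promoter methylation unreported in CCA until then, and describes its loss with decitabine in EGI-1 and other lines. By RT-PCR, the paper reports more SOX17, SFRP1 and UCHL1 mRNA with decitabine, in cells sensitive and resistant to the drug. Other known responses to the drug are interferon signalling after transcription of endogenous retroviruses, DNA damage signalling through p53, and inflammatory gene expression.

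Totals of 28864175 and 26152270 counts were held by the vehicle libraries, and of 28663329 and 25959904 counts by those with decitabine. Cholangiocyte markers fitted the label: KRT19, a biliary keratin, stood at 1559 and 1642 CPM (counts scaled to library size) in vehicle and 1572 and 1757 CPM in decitabine, and EPCAM, an epithelial adhesion molecule, at 297 and 295 CPM against 290 and 304 CPM. Summed over each marker list, hepatocyte genes reached 0.227 to 0.381 CPM, leukocyte genes 3.87 to 5.22 CPM, endothelial genes 21.9 to 30.5 CPM and fibroblast genes 30.0 to 43.6 CPM in these 4 libraries. PTPRC, which defines leukocytes, had 1 count in each of them, CD3E, DCN and LUM had 0 to 2, and most of the fibroblast sum was COL1A1 (29.9 to 43.5 CPM). CD14 made up most of the leukocyte sum (2.88 to 3.52 CPM) and CDH5 most of the endothelial sum (14.8 to 20.6 CPM). In such bulk samples, fewer cells that express a gene and less RNA per cell cannot be told apart.

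The 2 decitabine libraries stood further apart than the 2 vehicle libraries. The chi-square per gene between replicates was 10.5 for decitabine and 2.73 for vehicle, and across 13758 genes the log2 ratio of replicate 2 to replicate 1 rose with GC content in decitabine (r = 0.50, across genes, which are not independent) but hardly in vehicle (r = 0.05). Mitochondrial protein genes took 2.08% and 1.46% of counts with decitabine and 1.60% and 1.61% with vehicle. In replicate 2 of the combination, 48 genes had over 50 counts and over 8 times the next library, among them PTPRC at 381 counts and CD3E at 148, and none of the genes that passed the test for decitabine was among these 48. Genes of the major histocompatibility region (GRCh38 chromosome 6, 29657002 to 33212722, from MOG to RING1) were almost uncounted, with a mean under 10 counts for 119 of 142 protein-coding genes (83.8%, against 32.5% of all protein-coding genes), so that region gives no reading of antigen presentation.

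Promoters of 7 genes are shown because the comparison turns on their contrasts, each as a RefSeq window of GRCh38.p14 from 250 bases before the listed start to 50 after it, 5′ to 3′ on the gene's strand. In the first 3 windows capitals mark CpG sites, where DNA can be methylated. Methylation of these sites was not measured in these libraries. UCHL1 (chr4:41256678-41256977, plus strand, 25 CpG) had no reads in either arm, MAOB (chrX:43882401-43882700, minus strand, 28 CpG) had the largest fitted rise among the genes that passed the test, and LAPTM5 (chr1:30757725-30758024, minus strand, 5 CpG) rose from a clear level with few CpG sites.
UCHL1: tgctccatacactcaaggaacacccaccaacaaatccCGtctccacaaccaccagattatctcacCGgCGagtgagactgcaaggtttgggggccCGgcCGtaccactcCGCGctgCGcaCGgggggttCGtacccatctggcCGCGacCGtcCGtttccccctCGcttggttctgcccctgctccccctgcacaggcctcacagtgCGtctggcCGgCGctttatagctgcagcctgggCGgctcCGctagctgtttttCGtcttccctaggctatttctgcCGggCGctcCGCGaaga
MAOB: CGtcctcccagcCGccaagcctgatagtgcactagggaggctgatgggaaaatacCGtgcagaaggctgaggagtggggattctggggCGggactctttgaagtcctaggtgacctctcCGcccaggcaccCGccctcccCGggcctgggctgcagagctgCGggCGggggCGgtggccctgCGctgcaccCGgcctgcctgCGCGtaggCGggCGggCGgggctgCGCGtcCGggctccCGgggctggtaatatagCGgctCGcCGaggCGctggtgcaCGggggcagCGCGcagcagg
LAPTM5: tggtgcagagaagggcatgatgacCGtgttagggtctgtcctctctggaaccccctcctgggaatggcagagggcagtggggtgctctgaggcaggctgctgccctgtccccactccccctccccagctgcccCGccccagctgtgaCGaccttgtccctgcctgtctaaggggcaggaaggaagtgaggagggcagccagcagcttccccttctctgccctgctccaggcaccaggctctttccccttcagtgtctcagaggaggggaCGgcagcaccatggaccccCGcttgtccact
In the next 4 windows capitals mark TGANTCA, the letters read by AP-1 factors (N is any base; the letters are their own reverse complement). IL11 (chr19:55370414-55370713, minus strand), ANKRD1 (chr10:90921038-90921337, minus strand), IL23A (chr12:56338634-56338933, plus strand) and FST (chr5:53480379-53480678, plus strand) all rose and each holds 1 match, at -96, -195, -77 and -160 from the listed start. They are among the 10 genes called higher that hold a match, of 83 with a window, and are shown for that match.
IL11: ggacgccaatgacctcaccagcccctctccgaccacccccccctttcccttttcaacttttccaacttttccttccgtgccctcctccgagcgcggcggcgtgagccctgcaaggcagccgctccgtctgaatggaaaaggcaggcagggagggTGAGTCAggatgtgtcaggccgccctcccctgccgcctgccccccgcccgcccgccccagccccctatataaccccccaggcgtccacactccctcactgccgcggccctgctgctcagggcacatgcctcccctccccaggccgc
ANKRD1: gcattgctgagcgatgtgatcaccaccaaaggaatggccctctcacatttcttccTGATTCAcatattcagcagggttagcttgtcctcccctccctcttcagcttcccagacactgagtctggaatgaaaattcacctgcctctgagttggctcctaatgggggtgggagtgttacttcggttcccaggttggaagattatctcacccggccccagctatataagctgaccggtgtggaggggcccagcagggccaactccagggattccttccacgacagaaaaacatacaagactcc
IL23A: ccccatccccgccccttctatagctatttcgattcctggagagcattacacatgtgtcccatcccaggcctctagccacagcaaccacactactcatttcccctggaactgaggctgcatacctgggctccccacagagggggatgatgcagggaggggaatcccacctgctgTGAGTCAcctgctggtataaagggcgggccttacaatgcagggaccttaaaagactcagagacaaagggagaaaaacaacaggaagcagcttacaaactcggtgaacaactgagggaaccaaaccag
FST: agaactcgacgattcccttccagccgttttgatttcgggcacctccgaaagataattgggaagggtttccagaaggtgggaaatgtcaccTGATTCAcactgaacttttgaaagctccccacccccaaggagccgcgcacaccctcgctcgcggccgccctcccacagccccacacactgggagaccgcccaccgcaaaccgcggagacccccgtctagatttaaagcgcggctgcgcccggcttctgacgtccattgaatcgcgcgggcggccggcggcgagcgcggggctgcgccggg

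Which genes 500 nM decitabine alone changed was tested first. Of 22406 genes 122 passed an adjusted p of 0.05 in edgeR (0.544%), 116 with a rise (0.518%) and 6 with a fall (0.0268%), and these are the genes called. The changes were small: the median over the 116 genes was 0.58 on the log2 scale (1.5-fold), 21 exceeded 2-fold, 59 stayed under 1.5-fold, and the smallest call was 1.20-fold. Among them were secreted inflammatory factors, matrix and adhesion genes, cytoskeletal genes and membrane receptors. At an unadjusted p under 0.05, 1350 genes (6.03%) were higher and 698 (3.12%) lower, while the median over all genes was 0.003.

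All 116 genes had both decitabine libraries above both vehicle libraries, as had 20.2% of all genes tested, and all 6 lower genes lay below, as did 18.4%. Genes called higher had a median GC content of 56.0% against 47.6% for genes tested, and with GC content smoothed out of each library, chosen after seeing the data, 303 genes were higher and 128 lower (70.3% of calls higher, against 95.1%). Of the 122 calls, 117 held under that smoothing. The number of calls depended on the libraries: 24 genes passed without vehicle replicate 1, 22 without vehicle replicate 2, 417 without decitabine replicate 1 and 287 without decitabine replicate 2. With each of these 4 left out in turn and under each other alternative, 10 genes were called throughout, including MMP1, LAPTM5, FHL1, IL11, GPRC5B, ANKRD1, FLNC and ICAM1 (higher) and RGPD6 (lower).

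**Figure D1:**
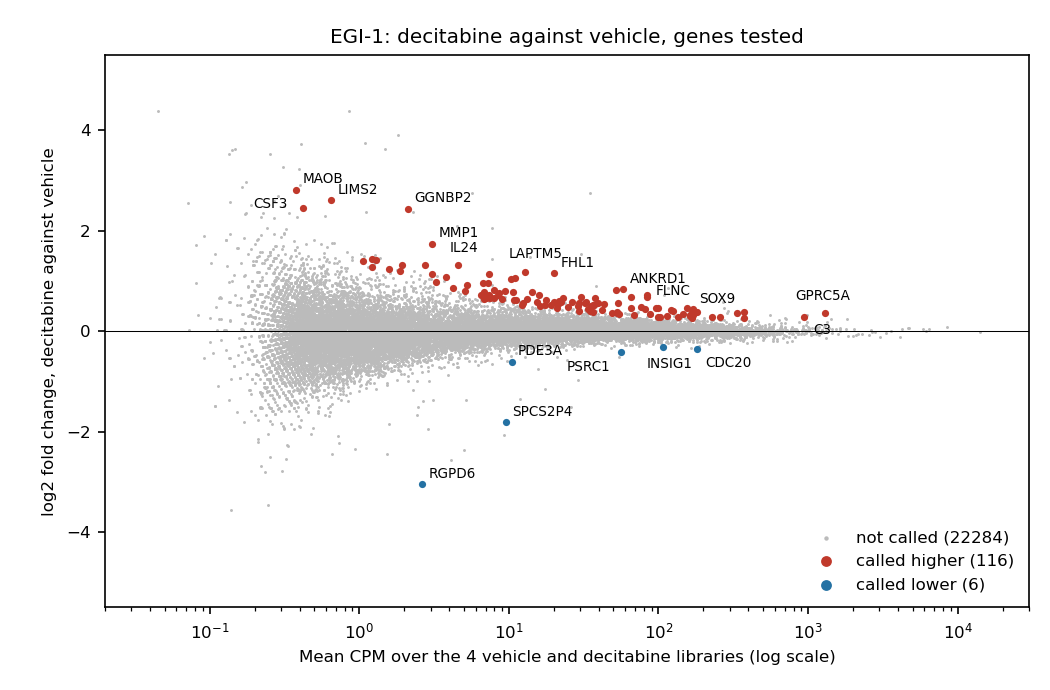
Each point is a gene tested in EGI-1 cells, with its mean CPM over the 4 vehicle and decitabine libraries on a log axis and its log2 fold change (decitabine against vehicle) on the other. The 116 genes called higher (red) include genes of low, middle and high level, and the 6 called lower (blue) are few. Of genes under 1 CPM in vehicle 0.148% were called higher, against 0.808% of genes over 100 CPM. At low levels many uncalled genes (grey) have changes as large as the called ones.

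The secreted and signalling genes rose as follows. MMP1, the collagenase that opens fibrillar collagen (ENSG00000196611.6, chromosome 11, 102789401 to 102798160), had 1.42 and 1.4 CPM in vehicle and 5.22 and 4.25 CPM in decitabine, a log2 fold change of 1.75 ± 0.20 (SE; edgeR, adjusted p = 0.000344). Its 4 libraries did not overlap between arms, and it had the largest rise among the 10 genes that were called throughout. MMP1 overlaps WTAPP1 on the other strand, and since the strand setting of the count is not stated, reads of such partners cannot be told apart. The same holds for LAPTM5, FLNC, ICAM1 and GPRC5B, which overlap other genes on the opposite strand.

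IL24, a cytokine of the IL-10 family (chromosome 1, 206897443 to 206904139), went from 2.95 and 2.27 CPM to 6.99 and 6.11 CPM (1.32 ± 0.18, adjusted p = 0.00121, edgeR), and overlaps FCMR on the other strand. IL11, a cytokine that signals through gp130 (ENSG00000095752.7, chromosome 19, 55364382 to 55370463), went from 6.97 and 7.24 CPM to 14.3 and 15.5 CPM (1.07 ± 0.12, adjusted p = 0.000235, edgeR). In both genes the lower decitabine library lay above the higher vehicle library. CSF3, the granulocyte growth factor (chromosome 17, 40015361 to 40017813), had 2 and 5 reads in vehicle and 21 and 18 in decitabine, a fitted log2 fold change of 2.46 that passed narrowly (adjusted p = 0.0467, edgeR).

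IL23A, a subunit of the cytokine interleukin-23, rose from 5.09 and 4.77 CPM to 8.82 and 7.34 CPM (0.71, adjusted p = 0.0323). IL32, a cytokine induced in epithelium by inflammation, rose from 24.7 and 22.6 CPM to 35.1 and 35.2 CPM (0.57, adjusted p = 0.00211). C3, the central complement component and already abundant, rose from 857 and 852 CPM to 1027 and 1050 CPM (0.28 ± 0.05, adjusted p = 0.0103). Of the receptors and mediators of this response, ICAM1, the leukocyte adhesion ligand (chromosome 19, 10271093 to 10286615), rose from 23.6 and 22.7 CPM to 37.5 and 37.3 CPM (0.69 ± 0.08, adjusted p = 0.000344), and its libraries agreed closely within each arm. NFKB2, a subunit of NF-κB and itself one of its targets, rose from 84.4 and 82.9 CPM to 109 and 122 CPM (0.46, adjusted p = 0.00376), and TNFRSF1B, a TNF receptor, by 0.50 on the log2 scale. All these adjusted p-values are from edgeR over 22406 genes.

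Several other called genes act in the cytoskeleton, matrix and adhesion, a grouping made after their values were seen and not a tested list. ANKRD1, an ankyrin-repeat protein that is a common readout of YAP and TAZ (ENSG00000148677.7, chromosome 10, 90912096 to 90921087), rose from 43.0 and 40.7 CPM to 79.5 and 69.5 CPM (0.83 ± 0.08, adjusted p = 7.29e-05, edgeR). FLNC, an actin crosslinker of the filamin family (chromosome 7, 128830406 to 128859274), had a smaller adjusted p, going from 64.2 and 62.97 CPM to 102 and 107 CPM (0.72 ± 0.06, adjusted p = 5.11e-05, edgeR). In ANKRD1 decitabine replicate 1 was the higher library, in FLNC replicate 2.

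FHL1, a LIM-domain protein known from muscle (chromosome X, 136146702 to 136211359), rose from 12.1 and 12.8 CPM to 24.4 and 30.9 CPM (1.15 ± 0.11, adjusted p = 7.29e-05, edgeR). AKAP12, a scaffold for protein kinase A, rose from 65.1 and 64.1 CPM to 116 and 90.1 CPM (0.68, adjusted p = 0.00211, edgeR). Integrin subunits that bind fibronectin and collagen moved less: ITGA5 rose from 53.2 and 56.5 CPM to 72.0 and 79.9 CPM (0.47), and ITGA2 from 294 and 292 CPM to 398 and 355 CPM (0.36). Others in this group were DBN1, TNS4, TUBB6, ADAM19, LTBP2 and AMOTL2, with log2 fold changes from 0.29 to 0.49. SNAI1, a transcriptional repressor of E-cadherin, rose from 2.46 and 2.39 CPM to 4.90 and 5.37 CPM (1.08 ± 0.18, adjusted p = 0.00659, edgeR), and FST, which neutralises activin, from 31.6 and 32.2 CPM to 46.2 and 48.0 CPM (0.56, adjusted p = 0.000783, edgeR).

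Biliary and epithelial genes were also among the rises. SOX9, a transcription factor of bile duct cells, rose from 140 and 149 CPM to 190 and 203 CPM (0.44, adjusted p = 0.00124, edgeR), and KRT7, a ductal keratin, from 41.2 and 44.9 CPM to 61.2 and 66.6 CPM (0.57, adjusted p = 0.00174, edgeR). KRT17, a keratin of stressed and basal epithelium, rose from 10.7 and 13.1 CPM to 19.9 and 19.5 CPM (0.73). SOX9 and KRT7 overlap antisense transcripts.

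Among membrane proteins LAPTM5, a lysosomal protein best known from blood cells (chromosome 1, 30732469 to 30757774), rose from 8.11 and 7.69 CPM to 18.2 and 17.6 CPM (1.18 ± 0.13, adjusted p = 0.00018, edgeR), while PTPRC stayed at 1 read a library. GPRC5B, an orphan receptor, rose from 4.64 and 4.51 CPM to 8.71 and 9.24 CPM (0.97), and its relative GPRC5A, the most abundant gene called, from 1136 and 1121 CPM to 1478 and 1443 CPM (0.37 ± 0.05, adjusted p = 0.000814, edgeR). The other abundant calls were C3, CTSB (a lysosomal protease, from 342 and 338 CPM to 401 and 417 CPM), TGM2 (a protein crosslinker, from 331 and 322 CPM to 428 and 420 CPM) and ITGA2. At these levels the 4 libraries separated the arms although the log2 fold changes were only 0.27 to 0.37.

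The largest fitted rises among the called genes rested on few reads. MAOB, a mitochondrial monoamine oxidase (chromosome X, 43766610 to 43882450), had 3 and 2 reads in vehicle and 16 and 20 in decitabine, a ratio of 7.34 with a 95% counting interval of 2.87 to 24.0 (edgeR log2 fold change 2.82 ± 0.59, adjusted p = 0.0347). LIMS2, an adaptor of focal adhesions (chromosome 2, 127638381 to 127681786), went from 0.242 and 0.114 CPM to 1.20 and 1.04 CPM (2.61, adjusted p = 0.00896, edgeR), and overlaps GPR17 on the other strand. GGNBP2 (chromosome 17, 36544912 to 36589848) went from 0.485 and 0.834 CPM to 2.54 and 4.64 CPM (2.44, adjusted p = 0.00405, edgeR), in a stretch where MYO19, ZNHIT3 and PIGW had 0 to 2 reads, so its counts are uncertain. FOLR1, CYGB, IGDCC4, ATP6V0A4, ESPNL, TSPAN10, SUSD2 and BRSK1, with log2 fold changes from 1.13 to 1.4, completed the 20 largest rises with LINC02725 (1.44) and LINC00592 (1.41).

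Neighbouring genes that were both called formed 3 pairs, given as positions with no reading of cause: the guidance receptors ROBO3 (0.52) and ROBO4 (0.59) on chromosome 11, ZNF385A (0.77) and ITGA5 on chromosome 12, and CDKN1A and CPNE5 (0.80) on chromosome 6.

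The 6 falls were of different kinds. CDC20, the activator of the anaphase-promoting complex (chromosome 1, 43358981 to 43363203), fell from 207 and 198 CPM to 157 and 162.1 CPM (-0.35, adjusted p = 0.0103, edgeR), and PSRC1, a spindle microtubule protein, from 62.1 and 65.97 CPM to 46.7 and 49.1 CPM (-0.42, adjusted p = 0.0203, edgeR). INSIG1, which holds back cholesterol synthesis, fell from 121 and 118 CPM to 98 and 93.1 CPM (-0.32), and PDE3A, a cyclic nucleotide phosphodiesterase, from 12.4 and 12.8 CPM to 8.15 and 8.43 CPM (-0.61). These 4 genes had tight replicates in both arms.

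The other two falls involve near copies. RGPD6 went from 5.75 and 3.71 CPM to 0.670 and 0.464 CPM (-3.05, adjusted p = 0.000814, edgeR), but it is nearly identical to relatives among which reads may have been split, and RGPD4, RGPD5 and RGPD8 had log2 fold changes of -0.17, -0.16 and -0.10 that did not pass. SPCS2P4 is a pseudogene of SPCS2 and went from 17.6 and 12.1 CPM to 3.14 and 5.33 CPM (-1.82), while SPCS2 itself had 0.19 (adjusted p = 0.471, edgeR).

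**Figure D2:**
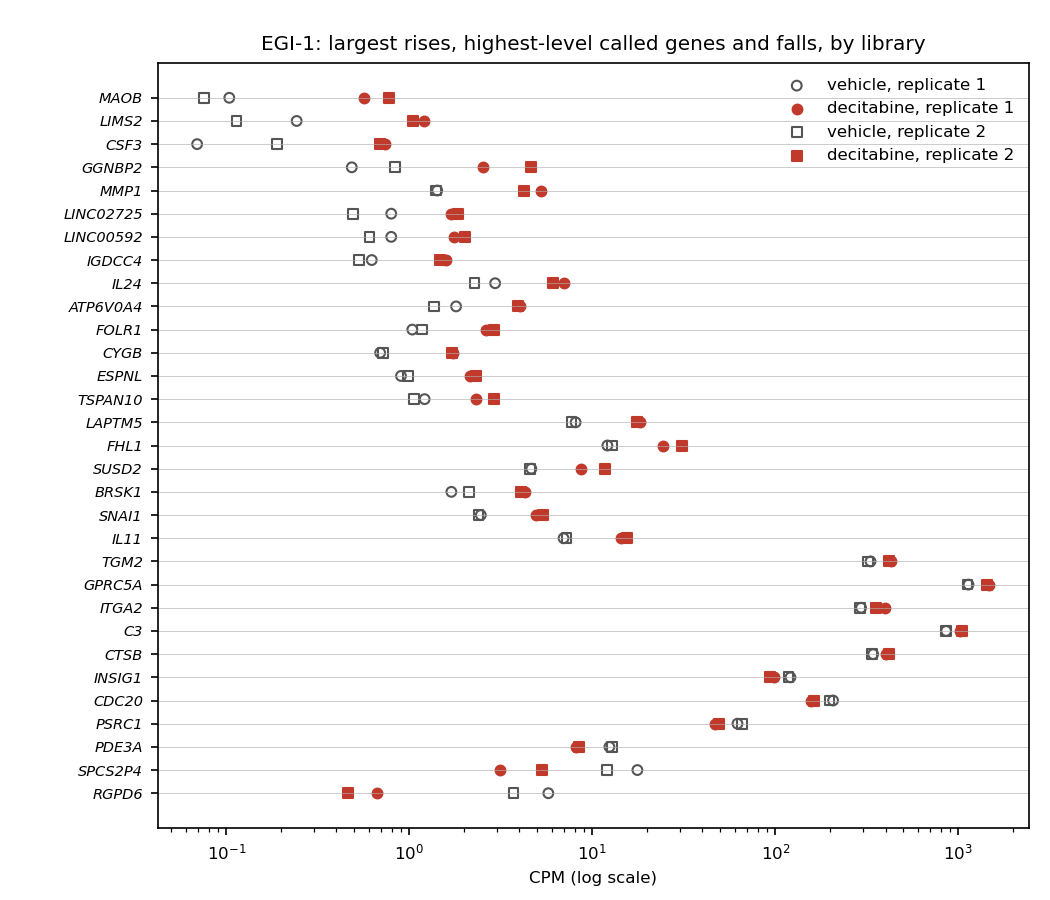
CPM on a log axis in each of the 4 libraries for the 20 largest rises, the 5 called genes with the highest vehicle level and the 6 falls (open symbols vehicle, filled symbols decitabine, circles replicate 1, squares replicate 2). In each gene shown the filled symbols lie on 1 side of the open ones, from MAOB below 1 CPM to GPRC5A above 1000 CPM. The rises and falls were picked from calls with this property. Of all genes tested, 20.2% had both decitabine libraries above both vehicle libraries and 18.4% had both below.

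Lists of genes with a shared role were read by their counts and medians, beside the median of 0.003 over all genes tested. Inflammatory and NF-κB target genes held the most calls: of 61 listed, 52 were tested, 9 rose (17.3%, against 0.518% of all genes tested) and 0 fell (among them CSF3, MMP1, IL24, IL11, ICAM1, IL32, NFKB2 and C3), with a median of 0.23. At an unadjusted p under 0.05, 29 were higher (55.8%, against 6.03% of all genes) and 1 lower. The number called ranged from 4 without vehicle replicate 2 to 17 without decitabine replicate 2, and was 7 with only the vehicle and decitabine libraries fitted and 14 higher and 1 lower with GC content smoothed. IL6, the best known member, had 73 and 70 reads in vehicle and 76 and 89 in decitabine (0.24, adjusted p = 0.812, edgeR). With talazoparib alone, against the same vehicle libraries, 19 of the 52 list members were called higher and 5 lower, with a list median of 0.26. Of all 22406 genes, talazoparib had 635 called higher and 288 lower.

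Genes of a mesenchymal state came next, with 3 of 24 tested higher (12.5%, against 0.518% of all genes), 0 lower and a median of 0.24. SNAI1 and ITGA5 were among the 3. SPARC, a matrix protein of this list, had 12 and 5 reads in vehicle and 28 and 29 in decitabine and did not pass (adjusted p = 0.0806, edgeR), nor did COL6A2 (0.67, adjusted p = 0.0683). Epithelial keratins and adhesion genes had 2 of 40 higher (5.0%, KRT7 and KRT17) and a median of 0.04, and KRT6A had a log2 fold change of 1.49 that did not pass (adjusted p = 0.0994, edgeR). The mesenchymal count ranged from 1 to 6 over the alternatives.

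Of the 6 genes called lower, 2 are G2/M genes (CDC20 and PSRC1), which is 3.7% of the 54 G2/M genes tested, against 0.0268% of all genes called lower. At an unadjusted p under 0.05, 9 G2/M genes were lower (16.7%, against 3.12% of all genes) and 0 higher, and the list median was -0.07. The 2 calls were lost with only the vehicle and decitabine libraries fitted and without either vehicle replicate, and GC smoothing gave 5. Of 43 S phase genes 0 were called (3 higher and 5 lower unadjusted, median -0.01), while GC smoothing gave 2 called lower and 10 lower unadjusted. Of 34 Fanconi anemia and homologous recombination genes 0 were called and 0 reached an unadjusted p under 0.05. Replication-dependent histone genes had 0 of 59 called, 3 lower and 0 higher unadjusted, and a median of -0.03.

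Among 44 p53 target genes 1 rose (2.27%, against 0.518% of all genes). This was CDKN1A, the cell cycle inhibitor p21 (chromosome 6, 36676460 to 36687337), in a locus that overlaps the antisense DINOL. It went from 69.7 and 69.0 CPM to 103 and 85.8 CPM (0.44 ± 0.08, adjusted p = 0.00896, edgeR). Decitabine replicate 1 was the higher. PRDM1 (0.74, adjusted p = 0.0512), TP53INP1 (0.44, adjusted p = 0.0964) and ZMAT3 (0.34, adjusted p = 0.098) did not pass. The list median was 0.05, with 9 higher (20.5%, against 6.03% of all genes) and 0 lower unadjusted. The number called ranged from 0, with only the vehicle and decitabine libraries or without either vehicle replicate, to 6 without decitabine replicate 1, and was 4 with GC content smoothed. LMNB1, a nuclear lamin that is lost in senescent cells, had 274 and 274 CPM in vehicle and 236 and 237 CPM in decitabine (-0.21, adjusted p = 0.107, edgeR).

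Of 58 interferon-stimulated genes tested 2 rose (3.45%, against 0.518% of all genes), IFITM2 (from 6.90 and 7.16 CPM to 11.5 and 10.6 CPM, 0.65, adjusted p = 0.0427, edgeR) and IFITM3 (from 130 and 126 CPM to 172 and 154 CPM, 0.35, adjusted p = 0.0363, edgeR), which restrict virus entry and are close relatives on chromosome 11. The list median was 0.09, with 11 higher (19%, against 6.03% of all genes) and 1 lower unadjusted, and the count ranged from 0 to 3 over the alternatives. IFI6 (0.73, adjusted p = 0.0907) and OAS2 (0.79, adjusted p = 0.179) did not pass. Of 20 interferon and sensor genes 1 was called higher (5.0%, against 0.518% of all genes). It was TICAM1, the adaptor of the RNA sensor TLR3, which rose from 47.4 and 48.3 CPM to 57.9 and 63.5 CPM (0.34, adjusted p = 0.0332, edgeR). Of 13 endogenous retrovirus-derived genes tested 0 were called and 2 were higher unadjusted, with a median of -0.03. MICA and MICB, ligands of the NKG2D receptor in the uncounted region of chromosome 6, had 0 to 3 reads in these libraries.

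The drug's own targets and handling genes were not called. DNMT1 stood at 449 and 446 CPM in vehicle and 427 and 457 CPM in decitabine (-0.02, 95% interval -0.134 to 0.096), DNMT3A at 24.0 and 22.5 against 21.5 and 23.6 CPM (-0.05, interval -0.248 to 0.156), and DNMT3B at 33.5 and 32.5 against 38.5 and 41.2 CPM (0.27, adjusted p = 0.177, edgeR). These are transcripts, so the trapping of the DNMT1 protein is not measured. Of 21 methylation machinery genes and 21 uptake and metabolism genes tested, 0 were called in each list, beside 0.544% of all genes called. The medians were 0.01 and 0.04. At an unadjusted p under 0.05, 2 methylation machinery genes were higher (9.52%) and 1 lower. Of the uptake and metabolism genes 3 were higher (14.3%) and 0 lower, against 6.03% and 3.12% of all genes.

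Imprinted genes (0 of 28), neuronal and neuroendocrine genes (0 of 24), clustered protocadherins (0 of 41), metallothionein and oxidative stress genes (0 of 12) and major histocompatibility and NKG2D ligand genes (0 of 18) had no calls, with medians from -0.07 to 0.12. Of all genes tested 0.544% were called. At an unadjusted p under 0.05 these 5 lists had 2, 2, 0, 3 and 2 members higher and 2, 1, 1, 0 and 2 lower, in the same order. Of 210 zinc finger genes of chromosome 19 tested, 1 rose (ZNF114, 0.62), a share of 0.476% against 0.518% of all genes.

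Genes known for promoter methylation were followed because decitabine acts on methylation. Of 66 listed, 40 were tested in EGI-1, and 2 rose (5.0%, against 0.518% of all genes). They were DKK1, a Wnt antagonist (from 146 and 140 CPM to 174 and 186 CPM, 0.33, adjusted p = 0.018, edgeR), and CYGB, a globin that binds oxygen (from 0.693 and 0.720 CPM to 1.73 and 1.70 CPM, 1.27, adjusted p = 0.0441, edgeR). The median was 0.14, with 9 higher (22.5%, against 6.03% of all genes) and 0 lower unadjusted. The number called ranged from 0, with only the vehicle and decitabine libraries, without either vehicle replicate or with a replicate block by number, to 4 with GC content smoothed or with no filter. RUNX3 (0.55, adjusted p = 0.0617) did not pass. With talazoparib alone, against the same vehicle libraries, the list median was 0.13 and CYGB had 1.47 (adjusted p = 0.00329, edgeR).

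In EGI-1, SOX17, UCHL1 and SFRP1 stayed at or near 0 reads. The paper's RT-PCR, by contrast, found more mRNA of these genes with decitabine in sensitive and resistant cells. The paper counts EGI-1 as resistant, but its text does not list the cells or the dose of that RT-PCR. SOX17, an endodermal transcription factor (chromosome 8, 54457935 to 54460892), had 0 reads in all 8 EGI-1 libraries, and in HUCCT1 24 and 22 reads in vehicle and 799 and 1004 with 1000 nM decitabine. UCHL1, a ubiquitin hydrolase (chromosome 4, 41256413 to 41268455), had 0 reads in vehicle, decitabine and talazoparib and 4 and 1 in the combination, and in HUCCT1 0 and 0 in vehicle and 936 and 1028 with decitabine, at least 321-fold higher against a floor of 3 counts a library. SFRP1, a secreted Wnt antagonist (chromosome 8, 41261962 to 41309473), had 0 and 0 reads in EGI-1 vehicle and 1 and 1 in decitabine, and in HUCCT1 4 and 5 in vehicle and a mean of 4.70 CPM with decitabine. A count of 0 allows up to 3 reads in such a library, so a change under that level was not detectable at this depth, and the doses in the lines differ.

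Of 106 germline genes listed, which are normally kept silent outside the testis and ovary, 81 had 3 counts or fewer in every vehicle and decitabine library of EGI-1, and 18 were tested, of which 0 were called (1 higher unadjusted, median 0.02), beside 0.518% of all genes called higher. From the floor in vehicle to above it in both decitabine libraries went 1 listed gene, SYCE1, a synaptonemal complex protein, with 2 and 0 reads in vehicle and 7 and 10 in decitabine (adjusted p = 0.264, edgeR). The other way went 1, TEX19, another germline gene, with 5 and 5 reads in vehicle and 3 and 1 in decitabine. In HUCCT1, 43 listed genes went from the floor to above it in both libraries. DAZL, an RNA-binding protein of germ cells, had 0 and 1 reads in EGI-1 vehicle and 0 and 5 in decitabine, and in HUCCT1 0 and 0 in vehicle and 3598 and 2915 with decitabine. MAGEA4, a cancer-testis antigen, had 0 and 0 reads in EGI-1 vehicle and 0 and 1 in decitabine, against 0 and 0 and then 454 and 466 in HUCCT1.

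Over all genes of the table, 255 went from 3 counts or fewer in both EGI-1 vehicle libraries to above 3 in both decitabine libraries, and 344 went the other way. The highest count among the 255 was 39, and MAOB was the 1 gene called. In HUCCT1 the numbers were 1937 and 362, and 143 of the 1937 exceeded 50 counts in both decitabine libraries, with a highest count of 8225 in CSF3. Among the 22406 genes that passed the filter in EGI-1 the order was the reverse, with 27 leaving the floor and 16 falling to it. The genes that left it stayed at low counts.

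**Figure D3:**
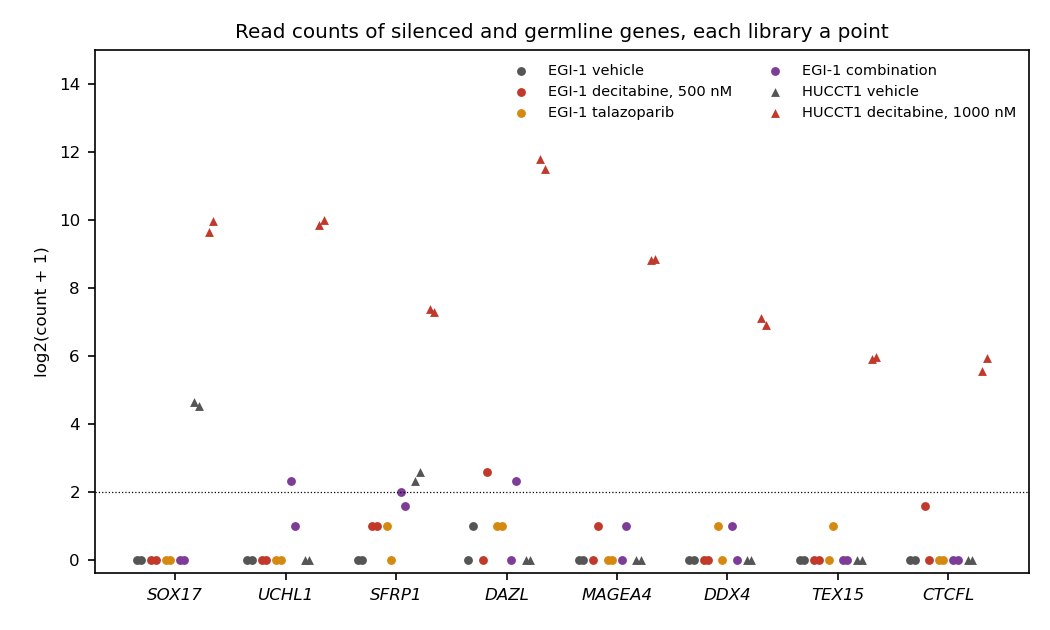
log2(count + 1) of 8 silenced or germline genes in each library of EGI-1 (circles) and HUCCT1 (triangles), with a dotted line at the floor of 3 counts. In EGI-1 nearly all points lie at or under the line in every arm, and the HUCCT1 libraries with 1000 nM decitabine lie far above it, up to 3598 reads for DAZL.

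Features that the test did not use were then set beside the calls, as a description. By mean vehicle level, 0.148% of 6097 genes under 1 CPM were called higher, 0.501% of 6584 genes at 1 to 10 CPM, 0.745% of 7250 genes at over 10 to 100 CPM and 0.808% of 2475 genes over 100 CPM, a range in which the power of the test also rises with counts. Of the 116 genes 114 were protein-coding (0.828% of those tested) and 2 were long non-coding RNAs (0.0421%). Chromosomes 1, 11, 17 and 19 held 12 each (0.531%, 0.943%, 0.867% and 0.882% of their genes tested, against 0.518% of all genes). On chromosomes 4, 13 and 21, 0 of 823, 439 and 259 genes tested were called higher. Differences between chromosomes were not tested.

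Promoter windows of RefSeq matched 12458 of the genes tested and 83 of those called higher. CpG observed over expected, which is low where methylated CpG sites have been lost in evolution and near 1 in CpG islands, had a median of 0.659 in the called genes and 0.818 in all tested. Windows under 0.4 made up 34.9% of called genes and 15.6% of all, and the share called higher was 1.49% there, 0.754% at 0.4 to 0.75 and 0.427% above 0.75. The printed windows span this range, from 0.16 in LAPTM5 to 0.870 in UCHL1 and 1.065 in FST. The share called was highest in windows poor in CpG, while the median log2 fold change was 0.022, 0.021 and 0.018 in the 3 classes.

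Motif letters were searched on both strands of the same windows. TGANTCA (AP-1) was in 10 of the 83 called genes (12%) and in 5.17% of the 12458 windows of genes tested. GGAATG (read by TEAD factors) was in 19 of the 83 (22.9%) and in 11.5% of the windows of genes tested. The motifs were counted apart, and matches of both can overlap at their ends. The 10 with TGANTCA were ANKRD1, CPA4, FST, IL11, IL23A, ITGA5, LINC02725, RAB3B, SPHK1 and TSPAN10. A match is a description of letters and does not show a site in use.

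The called genes were looked up in the other 4 EGI-1 libraries, by comparing the combination with talazoparib alone, which measures decitabine on top of talazoparib. The levels of these 4 did not enter the contrast that made the calls, but they shared its estimate of the spread, and with the vehicle and decitabine libraries fitted alone 40 of the 122 genes were called. All genes tested had 1.36% called higher, 0.567% lower and 48.4% with a log2 fold change above 0. Of the 116 genes, 115 had a log2 fold change above 0, 75 were called higher (64.7%) and 0 lower, with a median of 0.47. The exception in direction was FST at -0.20. Without replicate 2 of the combination, chosen after seeing the data, 114 were above 0 and 45 were called (0.408% of all genes were), with a median of 0.48.

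In that comparison MMP1 rose by 1.87 on the log2 scale (adjusted p = 1.78e-05), CSF3 by 2.19 (adjusted p = 0.0101), LAPTM5 by 0.99, FHL1 by 0.84, IL11 by 0.82, FLNC by 0.69, ANKRD1 by 0.58 and ICAM1 by 0.57, all called. CDKN1A rose by 0.71 and C3 had 0.19, which did not pass (adjusted p = 0.0659, edgeR). GGNBP2 had 0.07 (adjusted p = 0.972), LINC00592 0.26 and SNAI1 0.44, none of them called. Of the 6 lower genes 4 had the same direction, CDC20, PSRC1 and PDE3A were called lower, and RGPD6 was called higher (1.80). Without replicate 2 of the combination 0 of the 6 were called lower there.

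Talazoparib against vehicle shares the vehicle libraries with decitabine against vehicle, so its values are only set beside them. The median over the 116 genes was 0.57 with talazoparib and 0.58 with decitabine. MMP1 had a log2 fold change of 0.43 with talazoparib (adjusted p = 0.372, edgeR) and 1.75 with decitabine. ANKRD1 had 1.58 and 0.83, FST 1.26 and 0.56, GPRC5B 1.70 and 0.97, IL11 1.30 and 1.07, and ICAM1 0.44 and 0.69, in the same order. STRA6, the receptor for retinol-binding protein, had -0.55 (adjusted p = 0.0713) and 0.81, and SPDEF, an epithelial transcription factor, -0.04 and 0.55.

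In HUCCT1 with 1000 nM decitabine all 116 genes were tested, where 19.6% of all genes were called higher, 13.9% lower and 50.1% lay above 0. Of the 116 genes, 91 lay above 0, 75 were called higher (64.7%) and 7 lower, and the median was 0.74. The 7 were FAM167A, KRT7, MYADM, TGM2, DKK1, CD24 and AFAP1L2. CSF3 had 0 and 2 reads in HUCCT1 vehicle and 7010 and 8225 with decitabine, against 2 and 5 and then 21 and 18 in EGI-1. Log2 fold changes in HUCCT1 were 5.03 for LAPTM5, 2.95 for FHL1, 2.93 for ICAM1, 1.60 for MMP1 and 0.30 for FLNC. KRT7 had -0.69 there and SOX9 0.06. Line and dose differ together between these libraries and cannot be told apart.

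**Figure D4:**
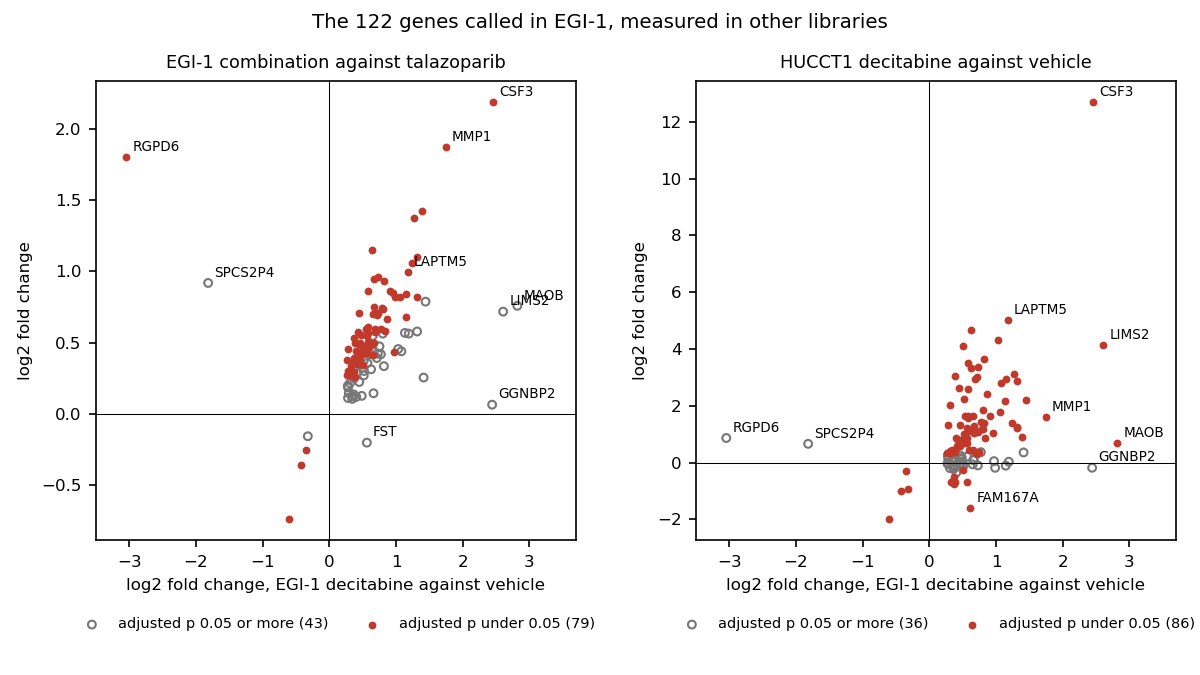
The 122 genes called in EGI-1, with their log2 fold change for decitabine against vehicle on the horizontal axes and, on the vertical axes, that for the combination against talazoparib (left) and for HUCCT1 decitabine against vehicle (right); red points have an adjusted p under 0.05 in the second comparison. On the left 115 of the 116 rises lie above 0 and RGPD6 lies on the opposite side; on the right 7 rises are called lower and CSF3, near 0 reads in HUCCT1 vehicle, is the highest point.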

How the data were processed

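RNA was sequenced from 12 libraries of EGI-1 and HUCCT1 cells, grouped by their labels. The authors deposited raw counts per gene, without normalization, for 60651 genes. The submitters' processing notes name fastp, Trim Galore, HISAT2, featureCounts and GRCh38, whereas the paper's methods name STAR and RSEM and describe RNA isolation differently from the labels. The paper names a stranded kit and the labels only standard Illumina protocols. The strand setting of the count and the handling of reads that match several genes are not given in the sources used here, so genes with opposite-strand partners or near copies are uncertain.

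Genes were tested with edgeR 4.0.16 (R 4.3.3) with filterByExpr on the arms and TMM factors (0.990 to 1.01 in EGI-1), with a robust quasi-likelihood fit of the 8 EGI-1 libraries and Benjamini-Hochberg adjustment over 22406 genes. An adjusted p under 0.05 was a call. HUCCT1 was fitted apart (22479 genes, 32519985 to 34965627 counts a library), and the EGI-1 totals ran from 23139065 to 33181930. DESeq2 1.42.0 was an alternative. CPM are counts per library size, scaled with TMM factors. An arm whose libraries each had at most 3 counts for a gene was at the floor, and intervals and floors cover counting error only. An exact permutation test of 2 against 2 cannot go below p = 0.333, so single genes rest on the fitted model. The scripts were tested on simulated data.

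Positions are GENCODE 44 on GRCh38, and promoter windows are RefSeq (GRCh38.p14); where several were listed, the one nearest the GENCODE 5′ end was used. The gene lists were written from general knowledge. The comparison, its lists and its named genes were chosen with earlier results of these data known. Named were the 20 largest rises and up to 10 falls among calls whose arms did not overlap, the 5 called genes with the highest vehicle level, genes the study names, up to 4 members a list besides those called, markers and called neighbours. GGNBP2's neighbours, the RGPD relatives, SPCS2, STRA6, SPDEF, TEX19 and other genes outside this rule were named after their values were seen. Replicate numbers were not taken to pair vehicle and decitabine. No set test was run. Some named genes are not reported here, though counts include them.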

Additional observations from a re-analysis of the deposited data

Results flagged for a closer look

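Whether decitabine acted differently with and without talazoparib was tested for each gene as an interaction in edgeR, and 36 of 22406 genes passed (0.161%). Of these, 32 were replication-dependent histone genes, all with a negative difference: over the 59 tested, the median effect of decitabine was -0.03 without and -0.78 with talazoparib. Without replicate 2 of the combination 28 of them passed, of 32 genes in all. Among the 122 called genes 3 passed and 24 had an unadjusted p under 0.05. For FST, the effect of decitabine was 0.56 without and -0.20 with talazoparib, a difference of -0.76 (adjusted p = 0.000645), and talazoparib alone had 1.26. Without replicate 2 of the combination the difference was -0.79 (adjusted p = 0.00491). For RGPD6 the effects were -3.05 and 1.80, a difference of 4.85 (adjusted p = 0.000312), which was 5.34 without that library (adjusted p = 0.000112). For SPCS2P4 they were -1.82 and 0.92, a difference of 2.74 (adjusted p = 0.00862), which no longer passed without that library (2.75, adjusted p = 0.225). RGPD6 and SPCS2P4 have near copies elsewhere in the genome, and how reads shared with them were counted was not tested.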

How the results depend on the processing

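The main count was 122 genes (116 higher and 6 lower). It was 157 higher and 7 lower with DESeq2, 128 with relative log expression factors (122 and 6), 99 without robust weighting (93 and 6), 94 when genes averaged 1 log2 CPM or more (88 and 6), 93 with upper-quartile factors (86 and 7, where the median of all genes moved to -0.03), and 95 higher and 6 lower without replicate 2 of the combination. Larger moves came with GC content smoothed (431 genes, 303 and 128), no filter on low counts (335, 299 and 36) and only the vehicle and decitabine libraries in the fit (43, 41 and 2). With a replicate block the counts were 60 by title number (56 and 4) and 75 by the series in the library names (71 and 4), but same-numbered vehicle and decitabine libraries did not deviate together (r = 0.052 over 13786 genes). Over the 6 pairs of arms r ran from -0.255 to 0.209. Numbers and series match among the decitabine, talazoparib and combination arms. There r was -0.255 for decitabine with talazoparib, -0.154 for decitabine with the combination and 0.209 for talazoparib with the combination. With each vehicle or decitabine library left out in turn, 22 to 417 genes were called, 14 to 385 higher and 5 to 104 lower. The causes of these differences were not tested. All 122 genes kept their direction in every alternative that tested them, 38 were called in each alternative that left out no vehicle or decitabine library, and 10 also with each of these left out. For decitabine on top of talazoparib, 78 of the 122 genes were called in the same direction, 82 with DESeq2, 75 with upper-quartile factors, 60 and 68 with the blocks, and 33 to 53 with each talazoparib or combination library left out (33 without talazoparib replicate 2). In HUCCT1, 79 were called, and 64 to 77 with each library left out. DNMT1 lay between -0.073 and 0.032 and DNMT3A between -0.121 and 0.025 with each library left out, above 0 without decitabine replicate 1, and neither was called. DNMT3B (adjusted p = 0.046) and LMNB1 (adjusted p = 0.00392) passed in edgeR with GC content smoothed. Calls of genes under 1 CPM rest on few reads, and 2 libraries an arm limit all calls of small changes.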

Other observations

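Genes of several other roles were among the 116 rises. JAG2, a Notch ligand, rose from 4.09 and 5.76 CPM to 8.33 and 10.8 CPM (0.95, adjusted p = 0.0147, edgeR), and KISS1, the precursor of kisspeptin, from 30.8 and 30.1 CPM to 39.6 and 48.4 CPM (0.53, adjusted p = 0.00754, edgeR). SPHK1, which makes sphingosine 1-phosphate, rose by 0.58 on the log2 scale, SLPI, a secreted protease inhibitor of mucosa, by 0.58, and PIK3AP1, an adaptor of PI3K signalling, by 0.66. DUSP6, a phosphatase that restrains ERK, rose from 77.2 and 76.9 CPM to 104 and 91.8 CPM (0.35, adjusted p = 0.0301, edgeR). These genes were chosen after their values were seen.

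In EGI-1 vehicle replicate 1, ACACA, the enzyme that makes malonyl-CoA (chromosome 17, 37084992 to 37406836), had 1745 reads, and in vehicle replicate 2 and the decitabine libraries 436, 431 and 304. Replicates differed in other arms too, with 731 and 528 reads in talazoparib and 321 and 721 in the combination. HUCCT1 had 299 and 1018 in vehicle and 732 and 398 with decitabine. The cause was not tested.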
